A study of Mus musculus with 3 samples.

Results

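The genes described here are 8 members of the neurotrophic factor families and their receptors, out of 32285 genes in the count tables. They were chosen by symbol, with no measured value in the rule. They comprise the neurotrophins Bdnf, Ntf3 and Ntf5, the low-affinity neurotrophin receptor Ngfr, the GDNF family ligands Gdnf and Artn, the GDNF receptor Gfra1, and Cntf. All 8 had at least 1 UMI (unique molecular identifier, a tag that marks 1 captured mRNA molecule) in each library, and 5 of the 8 had at least 100 UMIs in all. Single mononuclear cells were isolated from the costal diaphragm, the muscular part of the main breathing muscle, and sequenced as 3 droplet libraries that count the 3' ends of transcripts. The first library (WT CD) came from C57Bl/6J mice kept on control diet for 6 months, and the second (WT HFD) from C57Bl/6J mice kept for 6 months on a diet with 45% of calories from lipid. The third (KO HFD) came from mice of the strain B6.129S2-Thbs1tm1Hyn/J, which carry a deletion of the thrombospondin 1 gene in every cell, on the same high-fat diet for the same time. The mice were male, the diets began at 2 months of age, and the cells of 2 mice were pooled into each library. With 1 library per group, no between-group difference has a replicate check, no p-value is given, and every 95% interval covers counting error only.

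Neurotrophins are secreted proteins that bind Trk receptor kinases, among them Ntrk2 and Ntrk3, and the shared receptor Ngfr, and they keep sensory and motor neurons alive and shape the synapse between nerve and muscle. GDNF family ligands bind a membrane-anchored co-receptor of the Gfra family, which then engages the kinase Ret or the adhesion molecule Ncam1. CNTF, known as a product of Schwann cells, signals through Cntfr together with Lifr and Il6st, and it supports motor neurons after injury. In muscle, the candidate sources are muscle stem cells (MuSCs), fibro-adipogenic progenitors (FAPs, the Pdgfra-positive stromal cells of muscle), Schwann cells, vessels and the mesothelium that covers the diaphragm.

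WT CD had 4132 barcodes with 34312860 UMIs, WT HFD 3774 with 31967976 and KO HFD 4369 with 36478779, and the median cell had 7632.5, 8041.5 and 7554 UMIs. The WT CD library shared 7 barcodes with WT HFD and 7 with KO HFD, WT HFD and KO HFD shared 2, and no barcode was in all 3. Thbs1, the deleted gene, was at 136 CPM (UMIs of a gene per 1000000 UMIs; 95% Poisson interval 132 to 140) in WT CD, 202 (197 to 207) in WT HFD and 163 (159 to 168) in KO HFD. A 3' tag can lie outside the deleted part, so Thbs1 does not check the genotype label here.

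Cells were grouped by Leiden clustering, in which neither the 8 genes nor the other genes of their pathways took part. The 26 clusters gave 14 classes named from marker genes. FAP-like cells were the most numerous (6660 cells in 7 clusters), and 1346 macrophage-like, 1218 MuSC-like, 878 endothelial-like, 705 B cell-like, 177 mesothelial-like, 62 tenocyte-like and 57 Schwann-like cells were also found. The Schwann-like cells carried the myelin genes Pmp22 at 6825 CPM and Mbp at 2637 CPM and the transcription factor Egr2 at 703 CPM, so they were of the myelinating kind by the marker list, while Gfap and Cdh2 were at 0. A further cluster of 46 cells, led by Chl1, Col20a1 and Nrn1, carried the non-myelinating Schwann markers Scn7a at 1087 CPM and L1cam at 327 CPM and the lineage gene Sox10 at 221 CPM. It rested on too few of the class markers to be named and is called the Chl1 cluster below. Of the tenocyte-like cells, 41.9% were called doublets. Free RNA in a droplet can give a cell a UMI of a gene it does not express, so shares of positive cells (cells with at least 1 UMI) are set beside those of B cell-like cells (median 8384 UMIs), a class not known for most of these genes.

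Each of the genes had its own distribution over the classes. MuSC-like cells held 72.0% of the Bdnf UMIs, FAP-like cells 610 and MuSC-like cells 451 of the 1245 Ntf3 UMIs, Schwann-like cells held 67.3% of the Cntf UMIs, and the 2389 Gfra1 UMIs were spread, with 926 in the FAP cluster led by Cxcl14 and Mme, 440 in MuSC-like cells, 291 in the Dio2 Pthlh FAP cluster and 28 in Schwann-like cells. The other 4 genes were sparse, with between 23 and 136 UMIs in the whole series. A transcript is counted once at its 3' end whatever its length, so CPM are compared between genes as captured transcript ends.

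**Figure D1:**
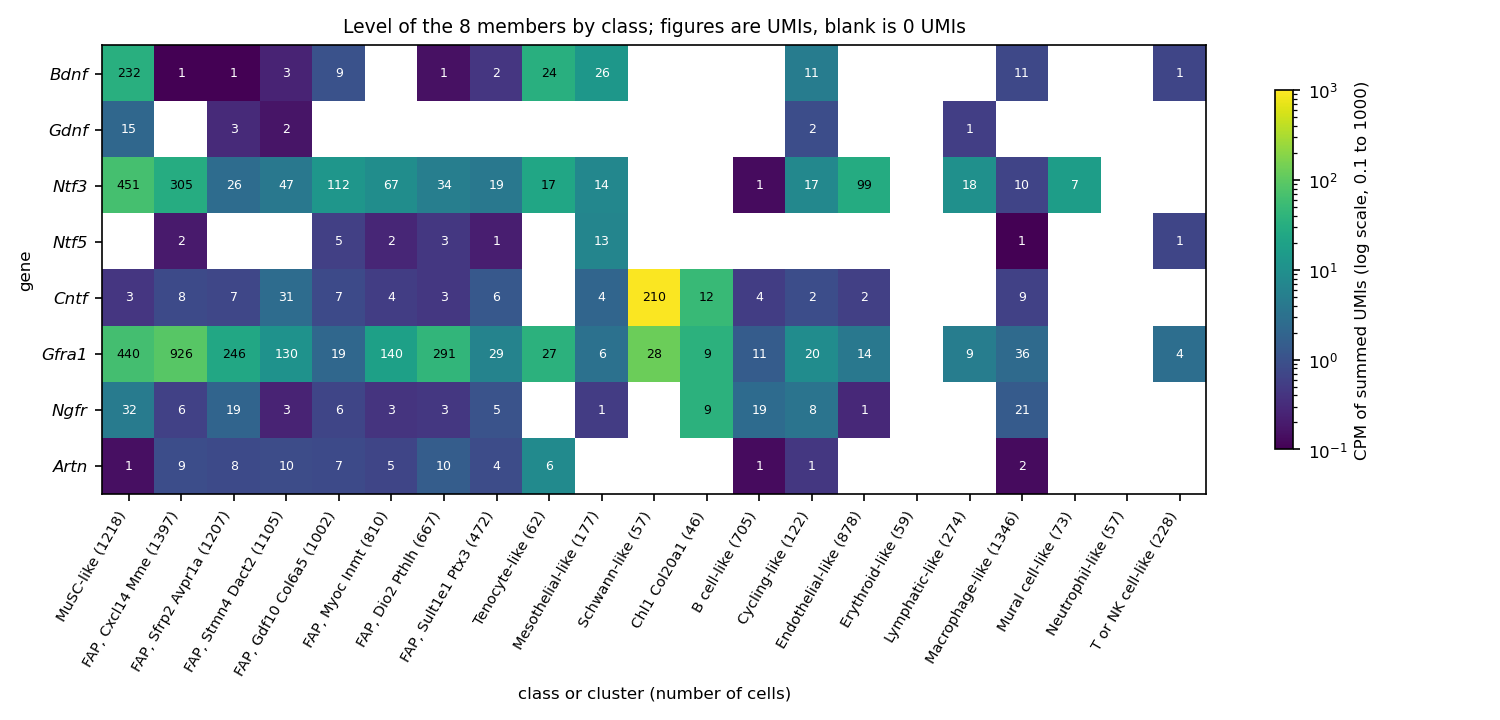
Heat map of the 8 genes (rows) over the cell classes and FAP clusters (columns). Colour is CPM of the summed UMIs of the 3 libraries on a log scale, held at 0.1 and 1000 CPM at its ends, and the number in each cell is the count of UMIs. Bdnf and Ntf3 are highest in MuSC-like cells and Cntf in Schwann-like cells, while the rows of Ntf5, Gdnf, Artn and Ngfr hold few UMIs.

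Bdnf (ENSMUSG00000048482, chromosome 2, 109674700 to 109727007, plus strand, GRCm38) encodes brain-derived neurotrophic factor, the ligand of Ntrk2. Its exons overlap those of Gm45346 on the opposite strand. In MuSC-like cells Bdnf was at 33.7 CPM (29.5 to 38.4; 232 UMIs), and 87 of 1218 cells (7.14%) were positive. None of the 705 B cell-like cells had a Bdnf UMI, and the floor of 3 counts lies at 0.393 CPM there. Cells with at least 3000 UMIs were also thinned to 3000, and shallower cells were left out of all thinned shares. The thinned share in MuSC-like cells (median 5075.5 UMIs) was 4.84%, from 1115 of the 1218 cells. The signal was concentrated, since 50 of the 87 positive cells had 2 or more Bdnf UMIs and the highest had 14. Mesothelial-like cells came next among the classes with more than a few positive cells, at 13.3 CPM (8.68 to 19.5), in 22 of 177 cells (12.4%; 2.29% thinned). The tenocyte-like value of 33.0 CPM rested on 4 cells, and 18 of its 24 UMIs were in 1 WT CD cell called a doublet, without which it was 8.42 CPM. FAP-like cells held 17 UMIs in 11 of 6660 cells, or 0.285 CPM.

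In MuSC-like cells Bdnf measured 32.3 CPM in WT CD, 46.1 CPM in WT HFD and 27.4 CPM in KO HFD, from 62, 84 and 86 UMIs in 23 of 419, 32 of 307 and 32 of 492 cells. WT HFD was the highest of the 3 libraries, and the interval of WT HFD (36.8 to 57.0) did not overlap that of KO HFD (21.9 to 33.9) but did overlap that of WT CD (24.7 to 41.4). The ratio of WT HFD to WT CD was 1.43 (1.02 to 2.02). Over 10 alternative ways of processing it ranged from 1.11 to 1.55, and the highest was past 1.5-fold. The ratio of KO HFD to WT HFD was 0.596 (0.436 to 0.814), past the 1.5-fold threshold that was applied to genes with at least 50 UMIs in the compared pair of libraries. Of all genes with that many UMIs in MuSC-like cells, 8% were past 1.5-fold in either direction between KO HFD and WT HFD, and 4.66% were past it in the lower direction. With cells assigned by a marker gate per cell in place of clusters, the ratio was 0.851 and not past 1.5-fold. In mesothelial-like cells Bdnf was at 10.8, 14.9 and 12.7 CPM in WT CD, WT HFD and KO HFD, with overlapping intervals.

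Ntf3 (ENSMUSG00000049107, chromosome 6, 126101412 to 126166910, minus strand) encodes neurotrophin-3, the ligand of Ntrk3 and a survival factor of proprioceptive neurons. It had 1245 UMIs in 977 cells and was the most widely detected of the neurotrophins here. MuSC-like cells had the highest level, at 65.6 CPM (59.6 to 71.9; 336 of 1218 cells, 27.6%, and 17.1% thinned), against 1 of 705 B cell-like cells (0.142%). The FAP cluster led by Cxcl14 and Mme, both genes of the adipogenic FAP state, followed at 29.7 CPM (26.5 to 33.3; 17.0% of cells, 8.10% thinned), and its interval lay wholly below that of MuSC-like cells. Endothelial-like cells were at 28.5 CPM (23.2 to 34.7; 9.68% of cells), tenocyte-like cells at 23.4 CPM and mural cell-like cells at 16.9 CPM from 7 UMIs, and each of these intervals overlapped the next above. The other FAP clusters ranged from 2.62 CPM in the cluster led by Sfrp2 to 12.8 CPM in the one led by Gdf10, and no Ntf3 UMI was in a Schwann-like cell.

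In MuSC-like cells Ntf3 was at 42.2 CPM in WT CD, 63.1 CPM in WT HFD and 81.3 CPM in KO HFD, with 71 of 419, 87 of 307 and 178 of 492 cells positive. WT CD was the lowest and KO HFD the highest, and their intervals (33.5 to 52.4 and 71.7 to 92.0) did not overlap, while that of WT HFD (52.1 to 75.7) overlapped the one above and barely the one below. WT HFD over WT CD was 1.496 (1.12 to 2.01), just short of 1.5-fold, and KO HFD over WT HFD was 1.29 (1.03 to 1.62), short of it. With the marker gate, WT HFD over WT CD was 2.03, past 1.5-fold. In the Cxcl14 Mme FAP cluster Ntf3 was at 25.2, 28.7 and 34.1 CPM in the same order, with overlapping intervals. In endothelial-like cells it was at 34.3, 28.5 and 21.9 CPM, the opposite order, also with overlapping intervals.

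Ntf5 (ENSMUSG00000074121, chromosome 7, 45413695 to 45417179, plus strand) encodes neurotrophin-4, a second ligand of Ntrk2. It had 28 UMIs in 27 cells. Mesothelial-like cells held 13 of them, in 13 of 177 cells (7.34%, and 1.71% thinned), at 6.64 CPM (3.54 to 11.4), and FAP-like cells held another 13 among 6660 cells. In mesothelial-like cells the 3 libraries gave 2, 10 and 1 UMIs, or 4.31, 10.6 and 1.81 CPM in WT CD, WT HFD and KO HFD. The WT HFD value was the highest, the intervals of all 3 overlapped, and the counts were too low for a comparison between libraries. MuSC-like and B cell-like cells had no Ntf5 UMI.

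Ngfr (ENSMUSG00000000120, chromosome 11, 95568818 to 95587735, minus strand) encodes the p75 receptor, which all neurotrophins bind. Of its 136 UMIs, 9 were in 9 of the 46 cells of the Chl1 cluster (19.6%), at 36.8 CPM (16.8 to 69.8). The thinned share was 22.9%, from the 35 cells deep enough to thin. The libraries gave 32.9 CPM in WT CD, 61.9 CPM in WT HFD and 25.1 CPM in KO HFD, from 2, 4 and 3 UMIs. Ngfr was thus seen in the Chl1 cluster in every library, with intervals that all overlapped. Schwann-like cells had no Ngfr UMI, and their floor of 3 counts lies at 13.3 CPM. In MuSC-like cells (median 5076 UMIs) Ngfr was at 4.65 CPM (3.18 to 6.57), and in B cell-like cells at 2.49 CPM (1.5 to 3.89). The share of positive cells was 2.55% (1.35% thinned) in MuSC-like cells and 2.41% (0.754% thinned) in B cell-like cells. The intervals of the level and of both shares overlapped. The 7 FAP clusters lay between 0.253 and 1.91 CPM, with intervals that all ended below that of MuSC-like cells. B cell-like cells were also above the lowest of them, the Stmn4 cluster (0.0521 to 0.738), so for Ngfr their share is not a background common to all classes. Cycling-like cells had 8 UMIs in 6.56% of cells (1.65% thinned).

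Gdnf (ENSMUSG00000022144, chromosome 15, 7810846 to 7837575, plus strand) encodes glial cell line-derived neurotrophic factor, a survival factor of motor neurons and the ligand of Gfra1. It had 23 UMIs in 19 cells, the fewest of the 8. MuSC-like cells held 15 of these in 11 cells, at 2.18 CPM (1.22 to 3.60), while B cell-like and macrophage-like cells had none. By library, MuSC-like cells had 3, 7 and 5 UMIs, or 1.56, 3.84 and 1.59 CPM in WT CD, WT HFD and KO HFD. The intervals of all 3 overlapped, and a difference was not detectable at this depth.

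Artn (ENSMUSG00000028539, chromosome 4, 117926162 to 117929763, minus strand) encodes artemin, the ligand of Gfra3 and a factor of sympathetic and sensory neurons. FAP-like cells held 53 of its 64 UMIs, 1 UMI each in nearly every positive cell, at 0.890 CPM (0.666 to 1.16). The FAP clusters lay between 0.677 and 1.5 CPM with overlapping intervals, so no cluster stood out at this depth. Over the 7 clusters Artn was at 1.31 CPM (0.858 to 1.93; 26 UMIs) in WT CD, 1.01 CPM (0.609 to 1.58; 19 UMIs) in WT HFD and 0.381 CPM (0.164 to 0.750; 8 UMIs) in KO HFD, so that KO HFD lay below WT CD without overlap. Over the 5 clusters without tenocyte markers among their leading genes, Artn was at 1.08 CPM (0.602 to 1.77) in WT CD, 0.978 CPM (0.521 to 1.67) in WT HFD and 0.445 CPM (0.179 to 0.918) in KO HFD, from 15, 13 and 7 UMIs. KO HFD was again the lowest, but all 3 intervals overlapped. Fewer UMIs also widen the intervals, and whether this or the clusters left out removed the separation was not tested. With fewer than 50 UMIs in each pair, Artn was not set against the threshold. Tenocyte-like cells had 6 UMIs, or 8.25 CPM (3.03 to 18.0).

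Gfra1 (ENSMUSG00000025089, chromosome 19, 58235604 to 58455909, minus strand) encodes the co-receptor that binds GDNF. Its exons overlap those of Gm16277 on the opposite strand. It was the most abundant of the 8 genes, with 2389 UMIs in 1540 cells.

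Over the summed libraries, Schwann-like cells had the highest Gfra1 level, at 125 CPM (82.7 to 180; 28 UMIs in 20 of 57 cells, 35.1%). The Cxcl14 Mme FAP cluster, at 90.2 CPM (84.5 to 96.2; 529 of 1397 cells, 37.9%, and 22.5% thinned), was lower by an amount within the counting interval of the Schwann-like value. Schwann-like cells were above this cluster in WT CD (151 against 73.3 CPM) and WT HFD (140 against 100.2 CPM). In KO HFD they were below it, at 90.9 against 96.6 CPM. MuSC-like cells were at 64.0 CPM (58.1 to 70.2; 337 of 1218 cells, 27.7%, and 17.0% thinned), below the Cxcl14 Mme cluster without overlap of the counting intervals, although the ranges of the 3 libraries overlapped. The FAP cluster led by Dio2 and Pthlh followed at 43.6 CPM (38.7 to 48.9), and tenocyte-like cells and the Chl1 cluster stood at 37.1 and 36.8 CPM, with intervals that overlapped that of the Dio2 Pthlh cluster. The remaining FAP clusters ranged from 2.17 CPM in the Gdf10 cluster to 24.7 CPM in the Sfrp2 cluster. The share of positive cells was 0.993% in B cell-like cells (0.151% thinned) and 1.71% in macrophage-like cells (median 9635 UMIs).

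In MuSC-like cells Gfra1 was at 39.6 CPM in WT CD, 82.3 CPM in WT HFD and 68.3 CPM in KO HFD, with 64 of 419, 109 of 307 and 164 of 492 cells positive. WT CD was the lowest, and its interval (31.2 to 49.5) overlapped neither that of WT HFD (69.6 to 96.5) nor that of KO HFD (59.4 to 78.1), which overlapped each other. WT HFD over WT CD was 2.08 (1.57 to 2.78). Of all genes with at least 50 UMIs in MuSC-like cells, 18.9% were past 1.5-fold in either direction in this comparison and 15.1% in the higher direction, and their median log2 fold change was 0.18, against 1.06 for Gfra1. KO HFD over WT HFD was 0.830 (0.670 to 1.03).

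In the Cxcl14 Mme FAP cluster Gfra1 was at 73.3 CPM in WT CD, 100.2 CPM in WT HFD and 96.6 CPM in KO HFD, with 149 of 458, 153 of 365 and 227 of 574 cells positive. WT CD was again the lowest, with an interval (64.3 to 83.2) that overlapped neither of the others. WT HFD over WT CD was 1.37 (1.15 to 1.63) and KO HFD over WT HFD 0.964 (0.826 to 1.13), both short of 1.5-fold. Of all genes, 6.35% and 5.02% were past it in these comparisons.

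In the Dio2 Pthlh cluster the same gene was at 32.3, 58.8 and 34.5 CPM in WT CD, WT HFD and KO HFD, so WT HFD was above both others with no overlap of intervals. WT HFD over WT CD was 1.82 (1.37 to 2.45), where 6.31% of genes were past 1.5-fold, and KO HFD over WT HFD was 0.588 (0.432 to 0.792), where 5.78% were. The ratio of WT HFD to WT CD was also past the threshold in the cluster led by Stmn4, at 1.88 (1.16 to 3.13; 4.99% of genes), and in the cluster led by Myoc, at 1.97 (1.24 to 3.18; 7.7% of genes), while KO HFD over WT HFD was 0.944 and 0.860 there. In the Sfrp2 cluster WT HFD over WT CD was on the other side of 1, with 29.7, 24.3 and 19.8 CPM in WT CD, WT HFD and KO HFD and ratios of 0.819 (0.596 to 1.12) and 0.814 (0.574 to 1.16). In the Sult1e1 cluster, 19, 1 and 9 UMIs were counted, too few for the threshold.

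The Dio2 Pthlh and Sfrp2 clusters had tenocyte markers among their 10 leading genes, so Gfra1, Ntf3 and the pathway list were compared between libraries over the other 5 clusters. Over these 5, Gfra1 was at 23.0, 31.1 and 32.4 CPM in WT CD, WT HFD and KO HFD. WT CD was below both others with no overlap, and the ratios were 1.35 (1.16 to 1.57) for WT HFD over WT CD and 1.04 (0.915 to 1.19) for KO HFD over WT HFD. Of all genes, 4.96% and 3.6% were past 1.5-fold in these comparisons. Over the same clusters, Ntf3 was at 11.1, 12.3 and 14.8 CPM, with ratios of 1.10 (0.881 to 1.38) and 1.20 (0.980 to 1.48).

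**Figure D2:**
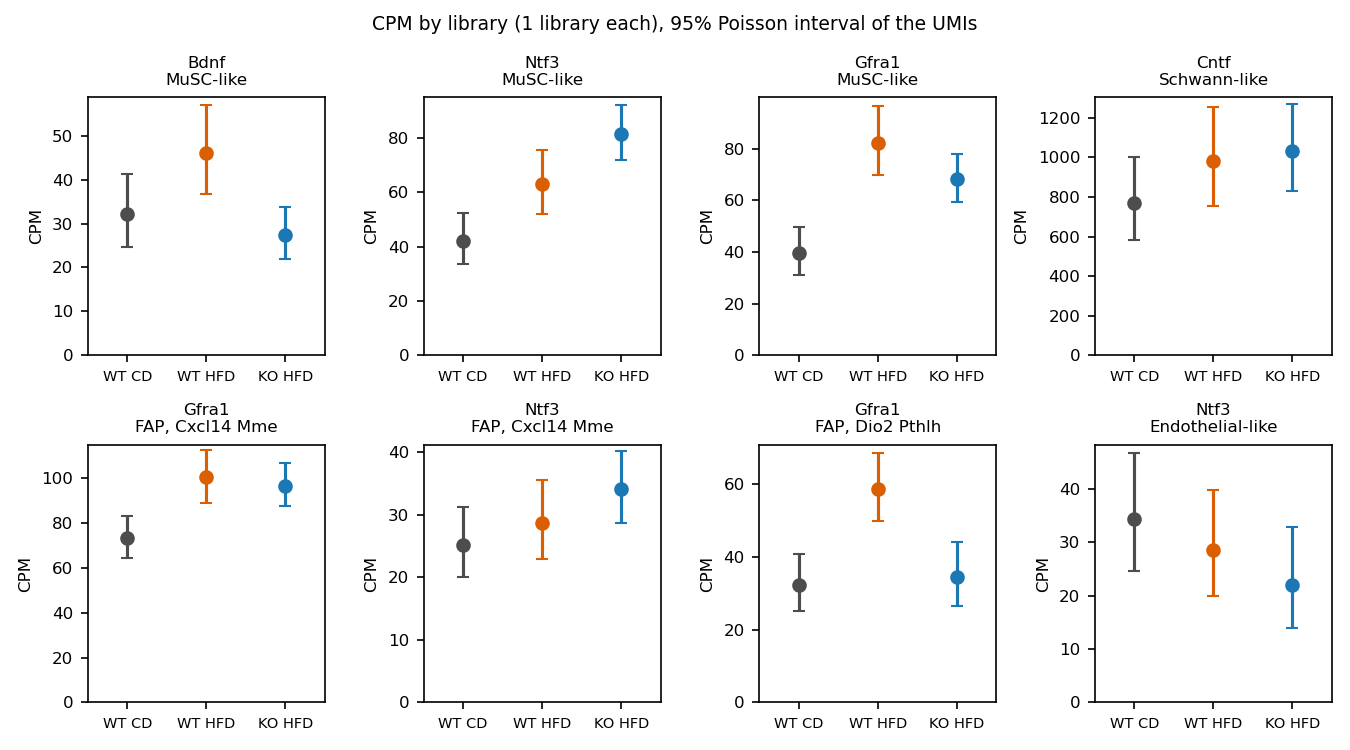
CPM of the most abundant members in the classes that held them, by library (WT CD, WT HFD, KO HFD), with exact 95% Poisson intervals that cover counting error only. Gfra1 in MuSC-like cells is at 39.6 CPM in WT CD and 82.3 CPM in WT HFD, and Bdnf in the same cells is highest in WT HFD at 46.1 CPM.

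**Figure D3:**
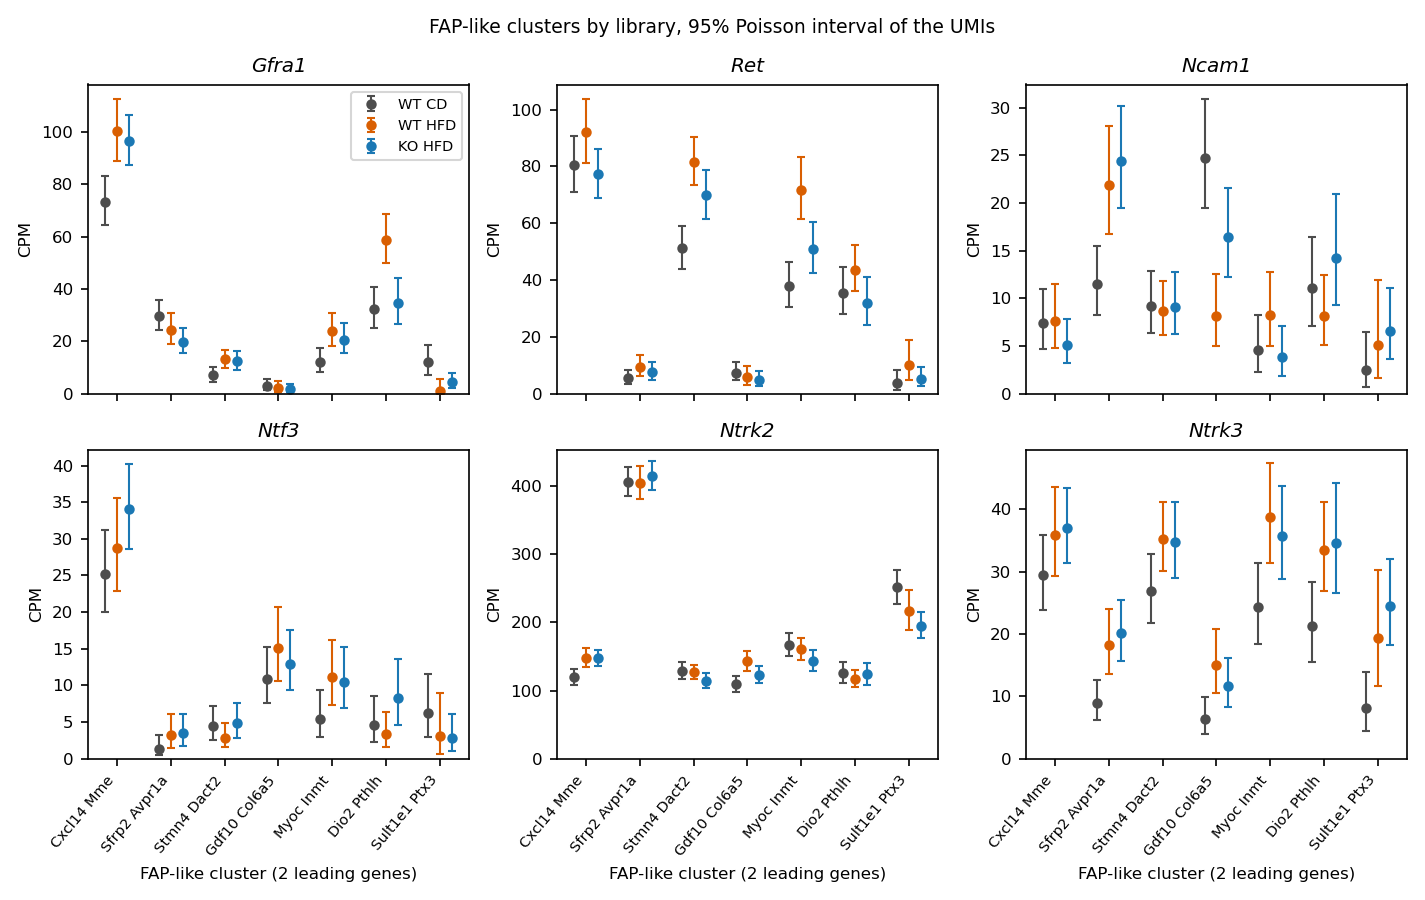
Gfra1, Ret, Ncam1, Ntf3, Ntrk2 and Ntrk3 in CPM (1 panel each) in each of the 7 FAP clusters by library, with exact 95% Poisson intervals. Gfra1 and Ntf3 are highest in the Cxcl14 Mme cluster in every library, and Gfra1 in the Dio2 Pthlh cluster is highest in WT HFD at 58.8 CPM.

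Reclustering of the FAP-like cells into 5 states gave 4 states that carried the marker genes of named FAP states, and the neurotrophic genes were left out of this clustering too. The FAP1-like state (1492 cells, led by Cxcl14) had the highest Gfra1 level, at 91.6 CPM, in 628 cells (42.1%), and at 76.4, 102 and 93.9 CPM in WT CD, WT HFD and KO HFD. The FAP4-like state was at 28.1 CPM, a state led by Postn and Timp1 that no marker list named at 18.0 CPM, the FAP2-like state at 7.50 CPM and the FAP5-like state at 4.38 CPM. Neighbours in this order had counting intervals that did not overlap. In the FAP2-like state, Gfra1 was at 2.91 CPM in WT CD, 9.0 CPM in WT HFD and 10.2 CPM in KO HFD, from 11, 41 and 39 UMIs. The Stmn4 cluster, which shares the leading genes Dact2, Sbsn and Efhd1 with this state, was at 6.94, 13.0 and 12.3 CPM. The size of the difference thus depended on the grouping, and no share over all genes was counted for the states. Ntf3 was highest in the FAP1-like state too, at 23.4 CPM (19.4, 20.6 and 28.6 CPM by library), and lowest in the FAP4-like state, at 1.94 CPM.

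All but 8 of the 1218 MuSC-like cells fell into 3 subclusters at a finer resolution, and their makeup differed between the libraries. The subcluster led by Gal and Pax7, a transcription factor of MuSCs, held 33.2% of the MuSC-like cells in WT CD, 60.3% in WT HFD and 63.8% in KO HFD. The subcluster led by Myf5 and Fgfr4, which also had Pax7 among its leading genes, held 65.2, 30.9 and 32.7%. A small one led by Myog, a gene of differentiating myoblasts, and Actc1 held 6, 21 and 16 cells, and Myog in all MuSC-like cells was at 11.5, 391 and 161 CPM in WT CD, WT HFD and KO HFD. Median UMIs per MuSC-like cell were 4442, 5287 and 5622. Whether the makeup or the depth took part in the differences between libraries was not tested beyond the values within each subcluster.

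All 3 genes were higher in the Gal Pax7 subcluster than in the Myf5 Fgfr4 subcluster. Bdnf was at 43.5 against 19.7 CPM, Ntf3 at 77.5 against 51.7 CPM and Gfra1 at 80.8 against 41.9 CPM, without overlap of the intervals over the summed libraries, and 14 of the 15 Gdnf UMIs of MuSC-like cells were in the Gal Pax7 subcluster. The summed values mix libraries in unequal parts, since WT CD gave 139 of the 638 Gal Pax7 cells and 273 of the 529 Myf5 Fgfr4 cells. Within a library, the intervals of the 2 subclusters did not overlap for Bdnf in WT CD and WT HFD or for Gfra1 in WT CD, and they overlapped for Ntf3 in all 3 libraries. Within the Gal Pax7 subcluster Gfra1 was at 62.0, 101 and 76.8 CPM, and WT HFD over WT CD was 1.62 (1.14 to 2.34; 17.8% of genes past 1.5-fold). Within the Myf5 Fgfr4 subcluster it was at 26.2, 59.6 and 53.8 CPM, with a ratio of 2.28 (1.30 to 3.96; 25.3% of genes past). The Gfra1 ratio was thus past 1.5-fold within both subclusters.

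Within the Gal Pax7 subcluster Bdnf was at 52.5 CPM in WT CD, 58.3 CPM in WT HFD and 32.5 CPM in KO HFD. WT CD and WT HFD overlapped, at a ratio of 1.11 (0.736 to 1.69), and KO HFD over WT HFD was 0.558 (0.392 to 0.794), where 7.95% of genes were past 1.5-fold. In the Myf5 Fgfr4 subcluster Bdnf was at 17.4, 24.3 and 20.3 CPM from 20, 11 and 17 UMIs, and KO HFD over WT HFD was 0.837 (0.370 to 1.98). Ntf3 in the Gal Pax7 subcluster was at 43.1, 76.8 and 89.9 CPM, so that WT HFD over WT CD was 1.78 (1.18 to 2.76; 17.8% of genes past 1.5-fold). In the Myf5 Fgfr4 subcluster it was at 41.0, 39.7 and 72.9 CPM, with WT HFD over WT CD at 0.968 (0.529 to 1.70) and KO HFD over WT HFD at 1.84 (1.07 to 3.30; 12.1% of genes past 1.5-fold). For Ntf3, the ratio past 1.5-fold was WT HFD over WT CD in the first subcluster and KO HFD over WT HFD in the second. The intervals of WT HFD over WT CD overlapped between the subclusters, and the difference between them was not tested.

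Cntf (ENSMUSG00000079415, chromosome 19, 12763660 to 12765632, minus strand) encodes ciliary neurotrophic factor. Its exons overlap those of Zfp91 on the same strand, so the split of reads between the pair is uncertain. The 250 bases before its RefSeq start (GRCm38.p6, chr19:12765633-12765882, minus strand) lie inside the span of the Zfp91 gene. They are shown because Cntf was counted mostly in Schwann-like cells, whose lineage factor Sox10 recognises SOX letters. They hold 1 match to ACAATG (reverse complement CATTGT), in capitals, beginning 54 bases before the start.
Cntf upstream: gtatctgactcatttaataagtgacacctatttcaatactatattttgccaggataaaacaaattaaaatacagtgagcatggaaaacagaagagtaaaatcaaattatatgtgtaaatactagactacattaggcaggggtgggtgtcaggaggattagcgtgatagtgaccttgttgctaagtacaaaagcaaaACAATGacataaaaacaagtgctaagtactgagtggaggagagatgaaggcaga
These letters occur on either strand in 3512 of the 32851 RefSeq promoter windows of this length (10.7%), so the match is a description and not a binding site. Promoter entries were found for 7 of the 8 genes.

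Schwann-like cells had Cntf at 934 CPM (812 to 1069; 210 UMIs), in 32 of 57 cells (56.1%, interval 42.4 to 69.3%; 15 of the 37 cells deep enough to thin, 40.5%). Their median depth was 3406 UMIs. The Chl1 cluster followed at 49.0 CPM (25.3 to 85.6; 12 UMIs in 10 of 46 cells), and the Stmn4 FAP cluster at 2.61 CPM, each below the one before without overlap. B cell-like and macrophage-like cells had Cntf UMIs in 0.567% and 0.669% of cells. Zfp91 was at 169 CPM in Schwann-like cells and 103 CPM over all cells.

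By library, Cntf in Schwann-like cells was at 771 CPM in WT CD, 981 CPM in WT HFD and 1034 CPM in KO HFD, from 56, 63 and 91 UMIs in 14 of 21, 9 of 18 and 9 of 18 cells. All 3 intervals overlapped, and the ratios of 1.27 (0.873 to 1.86; 12.9% of genes past 1.5-fold) and 1.05 (0.756 to 1.48; 32.7% of genes past) had 1 within their intervals. A few cells carried most of the count, since the top cell of each library had 27, 52 and 75 Cntf UMIs. Without these 3 cells Cntf was at 435, 200 and 211 CPM in WT CD, WT HFD and KO HFD, 283 CPM overall (214 to 368), and still above the Chl1 cluster. The order of the libraries turned with these cells: WT HFD over WT CD became 0.459 (0.207 to 0.947). In the 5 FAP clusters Cntf was at 2.22 CPM in WT CD, 0.828 CPM in WT HFD and 0.891 CPM in KO HFD, from 31, 11 and 14 UMIs, fewer than the threshold asks for.

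**Figure D4:**
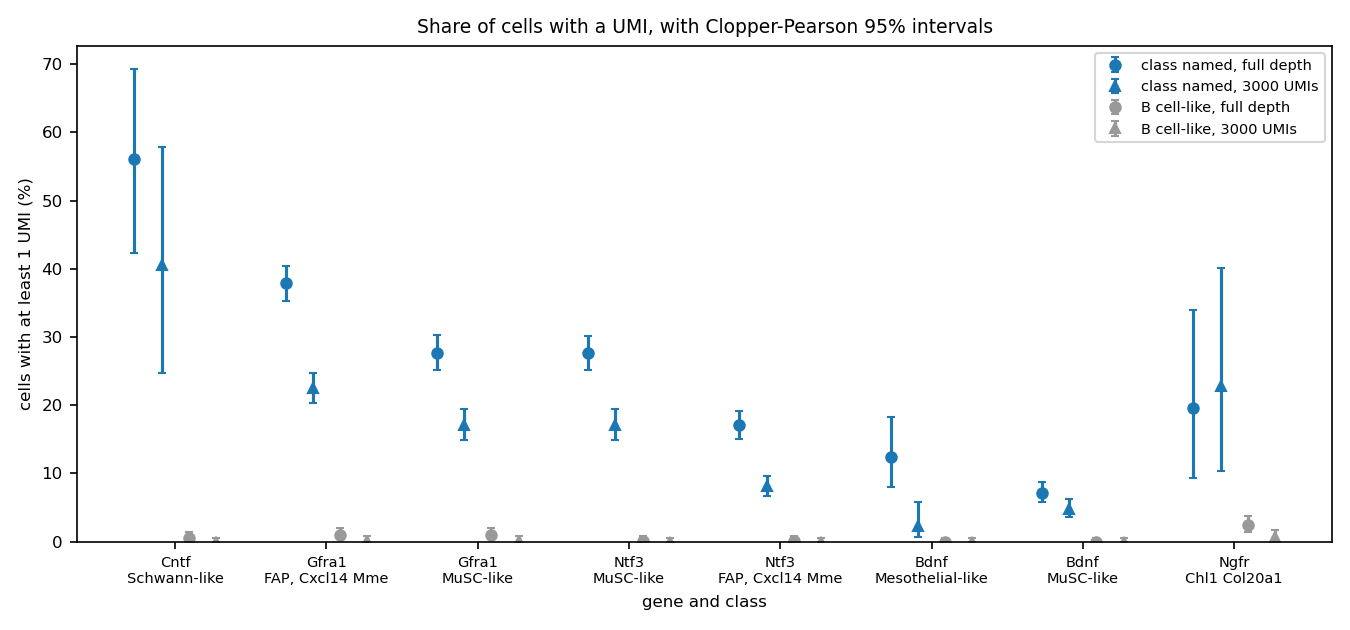
Share of cells with at least 1 UMI of a gene, in percent, in the class named on the axis (blue) and in B cell-like cells (grey), with exact 95% Clopper-Pearson intervals. Shares are at full depth and thinned to 3000 UMIs, where cells with fewer UMIs are left out. Cntf in Schwann-like cells (56.1%, 40.5% thinned) and Ngfr in the Chl1 cluster (19.6%, 22.9% thinned) lie above B cell-like cells, drawn in grey, and Bdnf in MuSC-like cells is lowest of the classes drawn in blue at full depth (7.14%).

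The receptors and partners of these factors came from a list of 30 pathway genes that includes the 8. Ntrk2, the receptor of BDNF and neurotrophin-4, was highest in the Sfrp2 FAP cluster, at 409 CPM (406, 405 and 415 CPM in WT CD, WT HFD and KO HFD), and in the Sult1e1 cluster, at 219 CPM. Ntrk3, the receptor of neurotrophin-3, was at 34.3, 33.0 and 32.6 CPM in the Cxcl14 Mme, Myoc and Stmn4 FAP clusters. Ntrk2 and Ntrk3 were thus highest in FAP clusters, whereas Bdnf and Ntf3 were highest in MuSC-like cells. Sort1 and Sorcs2, co-receptors of proneurotrophins, were highest in mural cell-like cells (116 CPM) and in the Chl1 cluster (69.5 CPM).

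Ret, the signalling kinase of the GDNF family, was at 82.3 CPM in the Cxcl14 Mme FAP cluster, 68.5 CPM in the Stmn4 cluster and 53.5 CPM in the Myoc cluster. Ncam1, the other partner of Gfra1, was at 445 CPM in the Chl1 cluster and 306 CPM in MuSC-like cells (343, 284 and 297 CPM by library). Gfra2, the neurturin receptor, was at 106 CPM in the Chl1 cluster and 42.7 CPM in macrophage-like cells (45.4, 37.7 and 45.0 CPM by library). Gfra3, the artemin receptor, had 65 of its 66 UMIs in the Chl1 cluster, at 266 CPM, in 22 of 46 cells and at 247, 247 and 285 CPM by library. Nrtn and Pspn, the remaining ligands, had 111 and 6 UMIs, and Gfra4 was at 16.3 CPM in mesothelial-like cells.

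On the CNTF side, Cntfr was highest in the Sfrp2 and Cxcl14 Mme FAP clusters, at 37.5 and 32.9 CPM, Lifr in the Cxcl14 Mme cluster at 212 CPM and in endothelial-like cells at 138 CPM, and Il6st in lymphatic-like cells at 291 CPM. Clcf1, another ligand of Cntfr, was at 10.6 CPM in MuSC-like cells. Ctf1, cardiotrophin-1, was at 32.2 CPM in mesothelial-like cells, and Lif was at 9.72 CPM in T or NK cell-like cells. Among the other neurotrophic factors, Ptn, pleiotrophin, was at 1602 CPM in the Chl1 cluster, Mdk, midkine, at 122 CPM in the Sfrp2 cluster and Nenf, neudesin, at 653 CPM in mesothelial-like cells, while Manf reached 516 CPM in the Sfrp2 cluster.

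**Figure D5:**
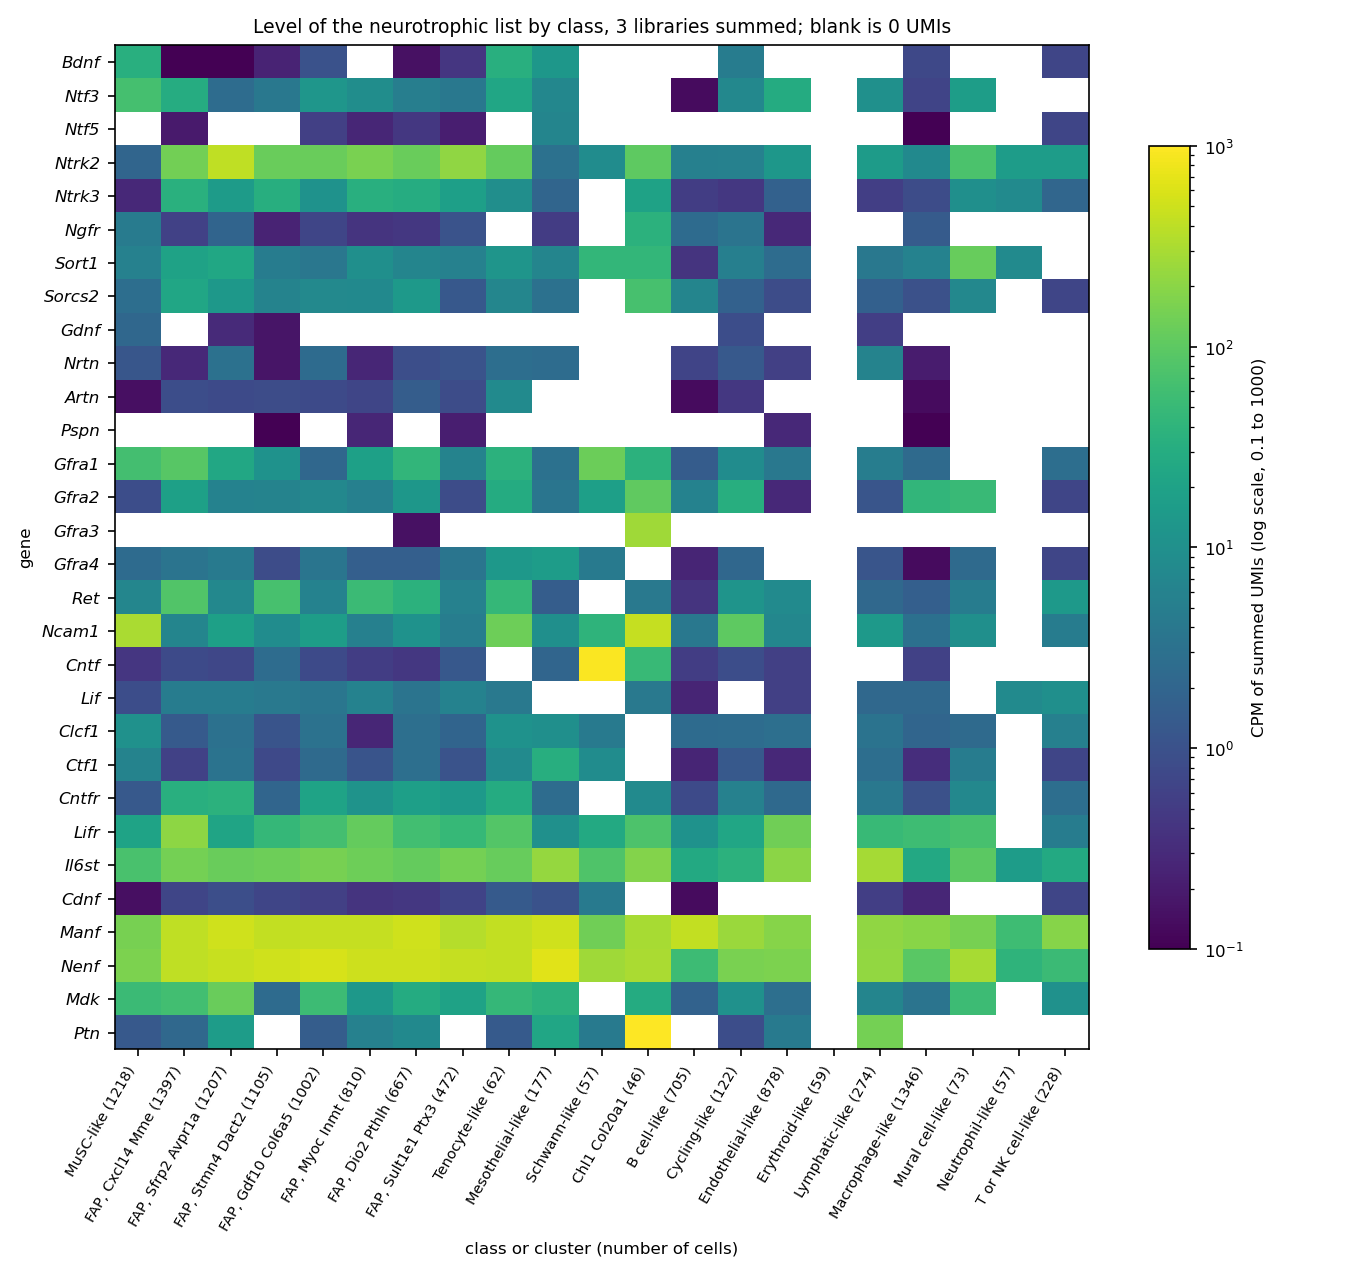
Heat map of the 30 pathway genes (rows, grouped by family) over classes and FAP clusters (columns), in CPM of summed UMIs on a log colour scale held at 0.1 and 1000 CPM at its ends. Gfra3 is confined almost wholly to the Chl1 cluster (65 of 66 UMIs), and Ret and Ntrk3 lie mostly in FAP clusters.

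Between libraries, the list was counted against the background of all genes with at least 50 UMIs. In MuSC-like cells, 9 of the 30 genes had enough UMIs for WT HFD against WT CD, where Gfra1 and Mdk (1.99-fold, 1.42 to 2.82) were past 1.5-fold higher and none lower (15.1% of all genes were past it higher and 18.9% in either direction). The list median was 0.12 on the log2 scale, beside 0.18 for all genes. For KO HFD against WT HFD, 1 of 10 genes was past it, Bdnf in the lower direction (4.66% of all genes lower, 8% in either direction), and the medians were 0.07 and -0.04. In the 5 FAP clusters, 18 genes qualified for WT HFD against WT CD, and 3 were past it in the higher direction (2.31% of all genes): Gfra2 at 2.21-fold (1.67 to 2.96), Ntrk3 at 1.53-fold (1.31 to 1.79) and Ret at 1.55-fold (1.39 to 1.73). Cntfr at 0.610 (0.496 to 0.749) and Ptn at 0.441 (0.252 to 0.748) were past it in the lower direction (2.64% of all genes). For KO HFD against WT HFD, Cntfr at 1.59-fold (1.30 to 1.96) was the only one of 17 past it (1.97% of all genes). The makeup of the 5 clusters differed between libraries. The Stmn4 cluster held 336 of their 1584 cells in WT CD, 409 of 1411 in WT HFD and 360 of 1791 in KO HFD. Ratios with the FAP states weighted alike were computed for Gfra1 and Ntf3 only. Whether the makeup took part in the differences of the other list genes was not tested.

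Cntfr over these FAP clusters was at 18.5 CPM in WT CD, 11.3 CPM in WT HFD and 18.0 CPM in KO HFD, so WT HFD was below both others, and both ratios share the WT HFD library. Ret was at 40.5, 62.7 and 46.8 CPM, highest in WT HFD. In the Cxcl14 Mme cluster 2 of 14 genes were past 1.5-fold higher in WT HFD than in WT CD (4.2% of all genes), namely Gfra2 and Sorcs2, and Cntfr was past it for KO HFD against WT HFD (2.69% of all genes past it in that direction). In the Myoc cluster 4 of 9 genes were past it in WT HFD against WT CD, all higher (5.08% of all genes), namely Gfra1, Lifr (1.53-fold, 1.29 to 1.81), Ntrk3 (1.59-fold, 1.14 to 2.25) and Ret (1.90-fold, 1.47 to 2.48). The genes past it were likewise all higher in the Sfrp2 cluster, with 4 of 13 (4.01% of all genes), in the Dio2 Pthlh cluster, with 3 of 12 (4.5%), and in the Stmn4 cluster, with 2 of 9 (3.09%). In the Gdf10 cluster Ntrk3 was past it higher and Ncam1 lower, of 10 genes (10.7% of all genes in either direction), and in the Sult1e1 cluster 0 of 6 genes were past it (11%). Ptn was among the 4 of the Sfrp2 cluster, opposite to its direction over the 5 clusters, with 159 UMIs in 7 cells of WT HFD beside 3 UMIs in WT CD. For KO HFD against WT HFD, 2 of 14 genes were past it in either direction in the Sfrp2 cluster (4.9% of all genes), 3 of 13 in the Dio2 Pthlh cluster (5.78%), 0 of 11 in the Stmn4 cluster (3.88%), 1 of 10 in the Gdf10 cluster (5.87%), 1 of 12 in the Myoc cluster (5.8%) and 1 of 7 in the Sult1e1 cluster (8.26%).

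In the other classes counted, few list genes had enough UMIs. In endothelial-like cells, Il6st was the 1 of 5 genes past it for WT HFD against WT CD, at 1.74-fold (1.44 to 2.10; 8.94% of all genes past it in either direction), and 0 of 5 were past it for KO HFD against WT HFD (9.21%). In macrophage-like cells, Ntrk2 was the 1 of 7 past it for WT HFD against WT CD, at 0.365 (0.218 to 0.596; 13.7%), and 0 of 7 were for KO HFD against WT HFD (8.86%). In mesothelial-like cells 0 of 4 and 0 of 3 genes were past it in these comparisons (13.9 and 10.6%), and in Schwann-like cells only Cntf had enough UMIs.

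Pairs of these genes were also looked at within single cells. In the Cxcl14 Mme FAP cluster, Ret was detected in 228 of 529 Gfra1-positive cells (43.1%, 38.8 to 47.4%) and in 288 of 868 Gfra1-negative cells (33.2%, 30.1 to 36.4%). Thinned to 3000 UMIs, the shares were 24.9% (20.2 to 30.2%) and 18.6% (16.3 to 21.1%), with intervals that overlapped slightly. In the Stmn4 cluster, Ret was in 74 of 99 Gfra1-positive cells (74.7%) against 32.2% of the negative ones, and 34.2% (19.6 to 51.4%) against 15.7% (13.6 to 18.1%) after thinning, without overlap. In MuSC-like cells, Ret was in 20 of 337 Gfra1-positive cells (5.93%) and 24 of 881 negative cells (2.72%), with overlapping intervals. Thinned, the order turned, at 1.05% of positive and 2.05% of negative cells, also with overlap. Ncam1 was in 263 of the positive cells and in 627 of the 881 negative cells (71.2%), and in 59.5% of positive and 57.0% of negative cells after thinning. Bdnf-positive and Bdnf-negative MuSC-like cells had Ntf3 in 32.2 and 27.2% of cells, and in 11.1 and 17.4% after thinning, with overlapping intervals at both depths. In the Chl1 cluster, Gfra3 was in 9 of 9 Ngfr-positive cells and 13 of 37 Ngfr-negative ones at full depth. Thinned, it was in 4 of 8 (15.7 to 84.3%) and 6 of 27 (8.62 to 42.3%), with overlapping intervals.

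Over the 14 named classes, with the libraries summed, the genes whose log2(CPM + 1) was most like a given member were found by Pearson's r, as a description over classes that share libraries and depth. For Bdnf they were Tbx4 (r = 0.966), Bex1 and Csdc2, for Ntf3 Acvr2b (r = 0.955), Gm10399 and Plxna2, and for Gfra1 Gm10371 (r = 0.934), Nav3 and Rnf165. For Cntf they were Foxd3 (r = 0.988), Kcna1 and Gldn, of which Kcna1 was 1 of the markers that named the Schwann-like class. For Ngfr the highest was Gm13373 (r = 0.857). The Chl1 cluster, where Ngfr was highest, was not among the named classes. The Bdnf profile took in the tenocyte-like value of 33.0 CPM, where 18 of 24 UMIs were in 1 cell called a doublet.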

How the data were processed

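The authors sequenced mononuclear diaphragm cells as 3 droplet 3' libraries (10x Genomics) and deposited filtered matrices of UMI counts per gene and cell from Cell Ranger (6.1.1 per the labels, 6.1.0 in the matrix header, mm10). No count was altered. The genes and lists were chosen with earlier results of these data known. The text names the 8 members, a pathway list of 30 genes, markers, leading genes of clusters and, for members with at least 100 UMIs, the 3 genes most like them over classes.

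Counts were scaled to 10000 per cell, and 2000 variable genes without the listed genes, 30 principal components and 15 neighbours were used for Leiden clustering at resolution 1 (scanpy 1.11.5). Clusters took a class name from markers with at least 3 detected. All barcodes were kept, and Scrublet called 1.26, 1.09 and 1.33% of cells of WT CD, WT HFD and KO HFD doublets. FAP states came from k-means (k = 5, 10 components), leaving out 175 genes, of which 121 differed 1.5-fold between libraries. UMIs were summed per class and library and divided by all UMIs there (CPM). Intervals are exact 95% Poisson, Clopper-Pearson and, for ratios, conditional binomial ones. A gene was called past the threshold at 1.5-fold or more with at least 50 UMIs in the compared libraries, and no test was run because each group is 1 library. Shares of positive cells were recomputed in cells thinned to 3000 UMIs, which left out the 448, 330 and 394 shallower cells of WT CD, WT HFD and KO HFD. The scripts were tested on simulated data. Alternatives were another resolution, a gate on markers, cell filters, doublet removal, TMM scaling (edgeR 4.0.16), thinning and other thresholds. Some genes of the pathway and marker lists are not reported here. Those of the pathway list are left out of the pathway counts and, like the rest of that list, took no part in the clustering. The promoter sequence is from RefSeq, and gene positions are from GENCODE on the same build.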

Additional observations from a re-analysis of the deposited data

How the results depend on the processing

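Of 104 alternative ratios between libraries, 99 stayed on the same side of 1. Gfra1 in MuSC-like cells stayed past 1.5-fold for WT HFD over WT CD in all 10 alternatives (1.62 to 2.28). For the same ratio, Bdnf in MuSC-like cells ranged from 1.11 to 1.55 over 10 alternatives. Cntf in Schwann-like cells ranged from 0.459 to 1.75 over 8 alternatives. The highest of each was past 1.5-fold. With a marker gate per cell in place of clusters, Bdnf in MuSC-like cells was at 0.851 for KO HFD over WT HFD, Ntf3 there at 2.03 for WT HFD over WT CD and Gfra1 in the 5 FAP clusters at 0.903 for KO HFD over WT HFD. Alternatives chosen after seeing the data were the MuSC-like subclusters and the omission of single cells. Within the Myf5 Fgfr4 subcluster, Bdnf was at 0.837 for KO HFD over WT HFD, and Ntf3 at 0.968 for WT HFD over WT CD and 1.84 for KO HFD over WT HFD. Cntf in Schwann-like cells was at 635 CPM without the cell with the most Cntf UMIs, with KO HFD over WT HFD at 0.215. That cell was in KO HFD, and the top cell of WT HFD was kept in that ratio. Without the top cell of each library Cntf was at 283 CPM, with WT HFD over WT CD at 0.459. WT HFD and KO HFD were then at 200 and 211 CPM. Thinning to 3000 UMIs lowered the share of positive cells to 4.84% for Bdnf, 17.1% for Ntf3, 17.0% for Gfra1 and 1.35% for Ngfr in MuSC-like cells, 1.71% for Ntf5 in mesothelial-like cells, 40.5% for Cntf in Schwann-like cells, and 8.46% for Gfra1 and 0.277% for Artn in FAP-like cells. At Leiden resolution 2, Gfra1 in FAP-like cells was at 33.6 CPM in 17.3% of cells. For the FAP1-like state, Gfra1 was at 110.1 CPM in 47.3% of cells with 6 k-means states. With the Leiden cluster in place of the state, Gfra1 was in 37.9% of cells and Ntf3 at 29.7 CPM, and thinning gave 23.0% for Gfra1, 6.73% for Ntf3 and 0.272% for Artn. With genes of at least 20 UMIs, the share of genes past 1.5-fold was 14.8% for KO HFD against WT HFD in MuSC-like cells, 8.62% and 7.08% for WT HFD against WT CD and KO HFD against WT HFD in the 5 FAP clusters, and 28.2% for WT HFD against WT CD in Schwann-like cells. TMM scaling, doublet removal and cell filters kept the values they were run on within their intervals, but Ntf3 in MuSC-like cells passed 1.5-fold for WT HFD over WT CD without doublets (1.51) and with cell filters (1.54), as did Cntf in Schwann-like cells with cell filters (1.57). They were not run on tenocyte-like cells, where Bdnf depended on 1 doublet. The causes were not tested. No paired analysis was possible because each group is 1 library. Depth limits Gdnf, Ntf5, Artn and Ngfr, whose counts by library were mostly under 20 in a class.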
